A study of Mus musculus with 38 samples.

Results

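The high fat control diet (HFC) was compared with the low fat control diet (LFC) at weeks 3, 6, 9, 12, 15 and 18, on 12 of the 38 one-colour mouse arrays of the series. In the paper's account of the experiment, weeks were counted from Day 14 (D14), so time on the diet is 14 days longer than the week label. The members were chosen by diet and week as the labels give them, with 1 HFC and 1 LFC array at each of the 6 weeks, and each HFC array was set against the LFC array of its own week. All mice were C57BL/6J, weaned at 3 to 4 weeks of age. LFC took 10% of its calories from fat, and HFC was a high fat, high sucrose diet with 60% of its calories from fat. Neither group received the botanical formulation that was given to other mice of the study. A diet group had 30 animals, of which 5 were sacrificed at each time point. The sources used here do not say how many animals went into 1 array, and no diet had a replicate array within a week, so every error below is the spread between weeks.

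RNA came from the stromal vascular cells of epididymal fat, which the labels call infiltrating macrophages. This fraction is what is left of fat tissue once the floating adipocytes are removed, and it holds macrophages, lymphocytes, fibroblast-like progenitors and endothelial cells. As background, fat tissue of obese mice gathers macrophages, many of which carry CD11c and take up lipid, while resident macrophages of lean fat carry scavenger and mannose receptors. Macrophages respond to Toll-like receptor ligands through NF-kB, which switches on cytokines and chemokines together with its own inhibitors. Adipocytes make fatty acids from glucose through a set of lipogenic enzymes that dietary fat lowers.

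The level of a probe is the log2 processed signal minus that of the 75th percentile of its array, so 0 is the level of the probe at that percentile, and a difference of 1 is 2-fold. The 75th percentile signal ran from 229.8 scanner units (LFC W18) to 1588 (HFC W9), and the share of probes that the scanner software called well above background from 57.0% (LFC W18) to 92.1% (HFC W12). Macrophage markers were present throughout: Cd68, C1qa, C1qb and Adgre1 were well above background on 12 of 12 arrays. Adipocyte markers were also present, and adiponectin (Adipoq) was well above background on the same 12.

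Several arrays stood apart in markers of other cells, and the comparison has to be read with this in view. The mean level of the 15 adipocyte genes was between 0.51 and 3.11 on 9 arrays, but 4.74 on LFC W9, 4.64 on HFC W9 and 4.70 on LFC W12. HFC W12 had 1.82, and 4245 probes on it had no usable spot because all were marked as outliers, against at most 30 on the other arrays. Immediate early genes, a set of transcription factors and phosphatases switched on within minutes of cell disturbance, averaged 0.13 on LFC W9, 0.54 on HFC W9 and 0.04 on LFC W12, and at least 4.14 on the other 9 arrays. So both diets shared this profile at Week 9, while at Week 12 the LFC array alone had it. Genes of neighbouring organs and of muscle also differed between the arrays of a week. Seminal vesicle genes averaged 5.84 on HFC W18 and -3.29 on LFC W18, mesothelial genes -4.57 on HFC W6 and 0.28 on LFC W6, and skeletal muscle genes 4.67 on LFC W6 and 0.44 on HFC W6.

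**Figure D1:**
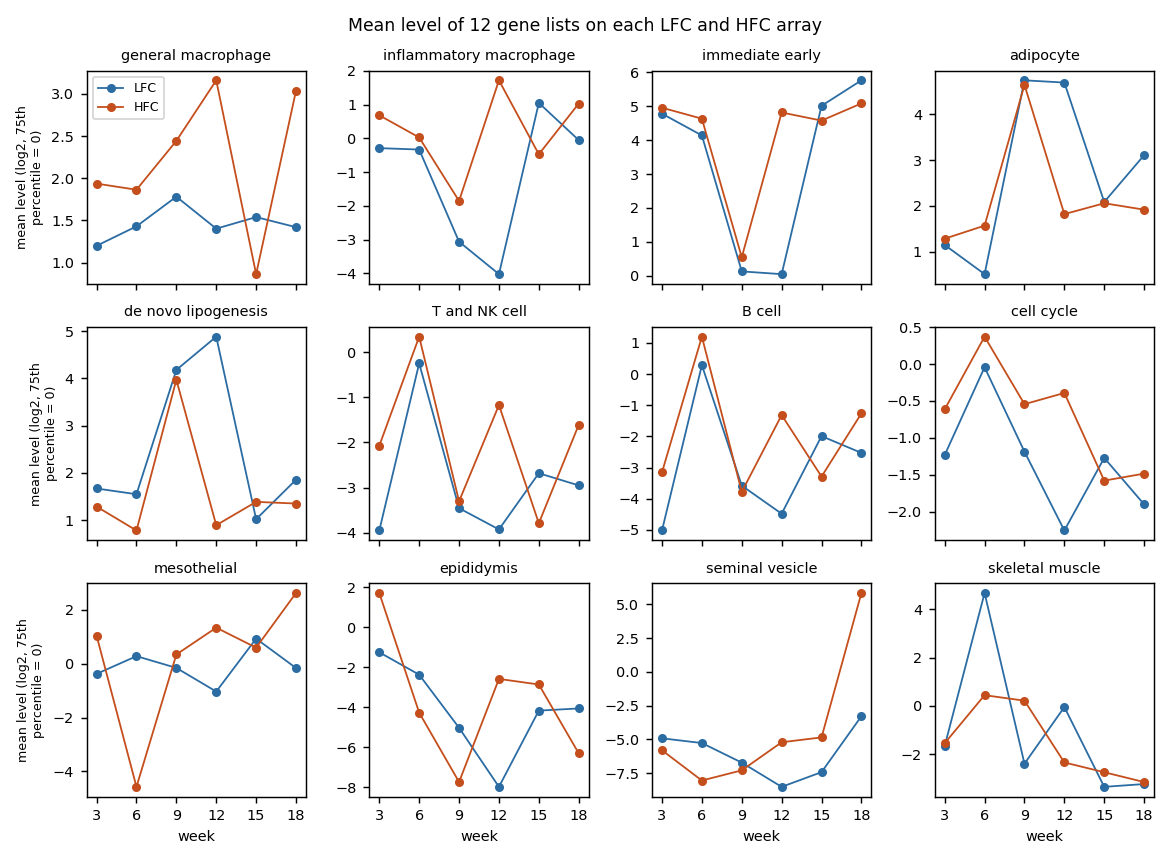
Mean level of the genes of 12 lists on each array, on the log2 scale with the 75th percentile of the array at 0, against week (LFC blue, HFC orange, 1 array per point, no error bars since there are no replicates). General macrophage genes were higher in HFC at 5 of 6 weeks, and the adipocyte and immediate early genes separate the arrays of Week 9 and LFC W12 from the rest.

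The first question was which transcripts differed between the diets over these weeks. Of 30665 probes tested with limma, 0 passed an adjusted p of 0.05 (0% of the probes), so no gene below can be called changed, and the smallest adjusted p was 0.864. Without adjustment, 687 probes at p below 0.05 were higher in HFC (2.24%) and 234 were lower (0.763%). A paired t-test on the weekly differences also called 0 after adjustment, with 440 probes higher and 398 lower unadjusted. The paper's t-test compared replicate values within a time point, which 1 array per diet and week does not allow. The median SE of a difference was 0.32 on the log2 scale, against a median absolute difference of 0.27. Over all 40628 probes the mean difference was above 0 for 52.1%, and 0.832% were higher in HFC in all 6 weeks and 0.793% lower in all 6. There was no probe with at least a 2-fold difference in 1 direction at all 6 weeks (0% for higher and 0% for lower).

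The weeks did not resemble each other. Across the tested probes, the differences of Week 15 correlated at -0.28 with those of Week 3, -0.43 with Week 6 and -0.41 with Week 9. The highest correlation between any pair of weeks was 0.28, for Week 3 and Week 18. Probes are not independent replicates, and the arrays of a pair share a scan day, so these values are a description. At Week 12, 8543 probes were at least 2-fold higher in HFC and 4726 at least 2-fold lower, against 2015 and 2109 at Week 9. Under quantile normalisation the counts of Week 12 turned to 4628 higher and 10146 lower. Whether the adipocyte and immediate early profile of LFC W12 accounts for the size of these counts was not tested.

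**Figure D2:**
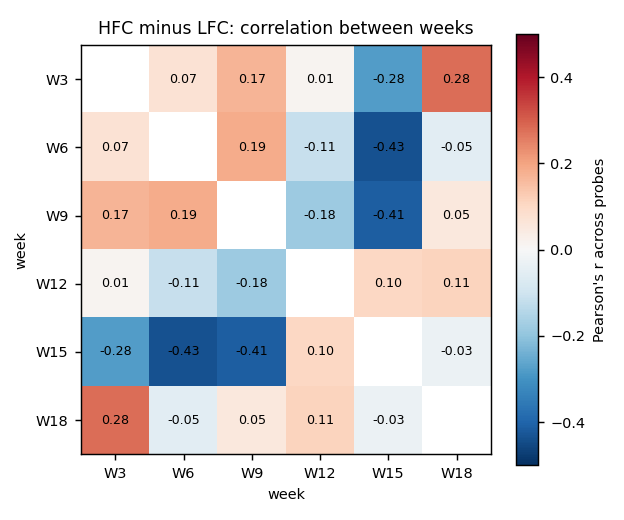
Pearson's r between the HFC minus LFC differences of each pair of weeks, across tested probes (28126 to 30644 per pair). Week 15 has negative values against Weeks 3, 6 and 9 (-0.28, -0.43 and -0.41).

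All 18 general macrophage genes had a mean above 0, with a median difference of 0.70 and a range from 0.16 to 1.33. The weekly medians were 0.63, 0.49, 0.65, 1.61, -0.69 and 1.30 for Weeks 3 to 18 in order, so Weeks 12 and 18 were highest and 0 of the 18 were higher in HFC at Week 15. Without Week 12 the median was 0.46, and without both Week 12 and Week 15 it was 0.79. Of the 18, 4 had an unadjusted p below 0.05, against 2.24% of all probes, and none passed after adjustment. In bulk RNA, more macrophages and more of these transcripts per macrophage cannot be told apart.

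Cd68, which encodes a lysosomal glycoprotein of macrophages, ran from -1.56 to 0.99 in LFC (median -0.35) and from -1.41 to 2.35 in HFC (median 1.01). The diets overlapped, and Week 15 was the exception among the pairs, with HFC below LFC by 0.96. Its mean difference was 1.26 (SE 0.52), a fold of 2.39, and HFC was higher at 5 of 6 weeks. C1qa, a chain of the complement starter C1q that tissue macrophages make, ran from 0.90 to 2.83 in LFC (median 1.97) and from 1.27 to 4.68 in HFC (median 3.15). It was 1.17 higher (SE 0.45), and its largest weekly difference, 3.15, was that of Week 18, when the LFC array was the dimmest of the 12. Without Week 18 it was 0.78. C1qb, another chain of C1q, differed by 1.18 (SE 0.50; 0.76 without Week 18) and Ms4a7, a tetraspan membrane protein of macrophages, by 0.76 (SE 0.28). For Ms4a7 the difference of Week 15 was -0.26 and those of the other weeks lay between 0.33 and 1.45. Adgre1, which encodes the F4/80 antigen, had a smaller difference of 0.53 (SE 0.37), with -1.17 at Week 15.

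**Figure D3:**
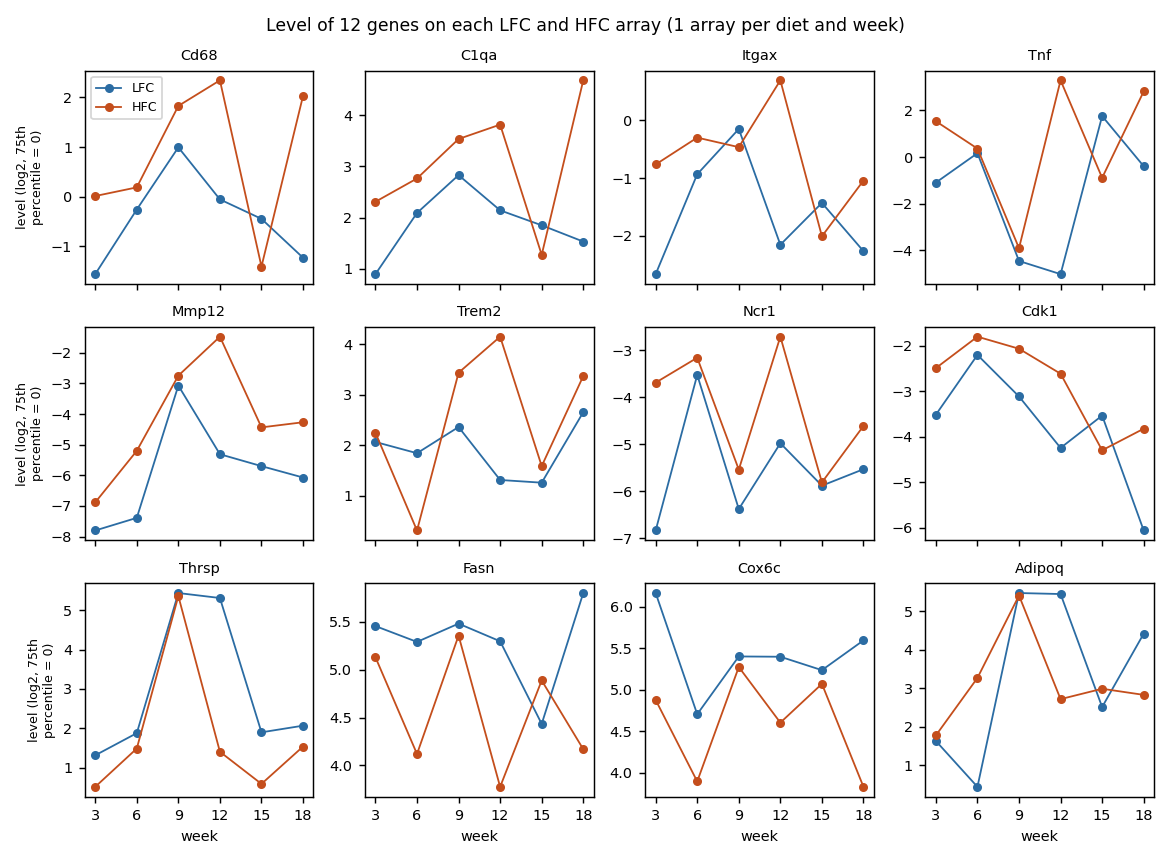
Level of 12 genes on each array (log2, 75th percentile of the array at 0) against week, LFC in blue and HFC in orange, 1 array per point. HFC lies above LFC at every week for Mmp12 and Ncr1 and below it at every week for Thrsp and Cox6c, while Cd68, C1qa and Cdk1 cross at Week 15.

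Genes of inflammatory macrophages had the highest median of the immune lists, and it rested on Week 12. Of 18, 17 had a mean above 0 and the median was 1.33. The weekly medians were 1.15, 0.33, 0.74, 5.89, -1.93 and 1.44, and without Week 12 the median was 0.48. No member had an unadjusted p below 0.05. Tnf, which encodes a cytokine that impairs insulin signalling in adipocytes, was 2.04 higher (SE 1.22). Its Week 12 difference was 8.31 and its Week 15 difference -2.65, and without Week 12 the mean was 0.79. The level of Tnf on LFC W12 was -5.02, the lowest of the 12 arrays. Ccl2, the chemokine that draws CCR2-bearing monocytes, differed by 1.33 (SE 0.92), with 1.65 at Week 3, -0.12 at Week 6, 0.19 at Week 9, 5.76 at Week 12, -2.22 at Week 15 and 2.73 at Week 18, and its mean without Week 12 was 0.45. The adipocyte and immediate early levels of LFC W12 stand beside these Week 12 values, and their part in them was not tested.

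Itgax, which encodes CD11c and marks the macrophages that gather in obese fat, ran from -2.66 to -0.15 in LFC (median -1.79) and from -2.01 to 0.69 in HFC (median -0.61). Its differences were 1.90, 0.63, -0.31, 2.84, -0.58 and 1.22, with a mean of 0.95 (SE 0.47) that was 0.57 without Week 12. Interleukin-1 beta (Il1b) differed by 1.43 (SE 0.90) with 6.33 at Week 12. Without Week 12 it was 0.44, and without Weeks 9 and 12 its difference was -0.05. For Il6, the gene of interleukin 6, the mean was 1.65 (SE 1.33) with 9.43 at Week 12 and -1.88 at Week 18, and without Week 12 it was 0.09.

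All 10 genes of NF-kB feedback, which NF-kB induces and which hold it or pass it on, had a mean above 0 (median 0.63, without Week 12 0.17). Tnfaip3, a ubiquitin-editing inhibitor of NF-kB, was 1.22 higher (SE 0.68) with 5.05 at Week 12 and -0.66 at Week 15. Nfkbia, the inhibitor that keeps NF-kB in the cytoplasm, was 0.80 higher (SE 0.51), and its probe was saturated on 6 of the 12 arrays, so its levels there are lower bounds. Icam1, an adhesion molecule for leukocytes, was 1.03 higher (SE 0.63). Without Week 12 these 3 means were 0.45, 0.35 and 0.43.

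Since the inflammatory and feedback genes were highest in the same week, their promoters were searched for 1 form of the NF-kB motif, GGG then any 3 bases then TTCC on either strand, in the 250 bases before the gene start (RefSeq, GRCm38.p6). It was found in 1527 of 32851 mouse promoter windows (4.65%). Of the 7 feedback genes with such a window 4 held it, and of 12 inflammatory genes 4 did, while 0 of 13 general macrophage genes and 0 of 11 adipocyte genes did. The share of 4.65% counts windows, while the list counts are of genes, and a gene counted if any of its windows held a match. The 2 kinds of count are therefore not on the same footing. The feedback genes were listed as genes that NF-kB induces, so their count is no test. A match is a description and not a site of binding. The windows of 5 of these genes are shown because their Week 12 differences lay between 3.10 and 10.99, all read 5′ to 3′ on the gene's strand, with the match nearest the start in question in capitals.
Tnfaip3: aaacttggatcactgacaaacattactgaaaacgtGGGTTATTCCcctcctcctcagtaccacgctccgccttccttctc
Nfkbia: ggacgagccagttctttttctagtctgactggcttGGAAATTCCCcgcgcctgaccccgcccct
Cxcl2: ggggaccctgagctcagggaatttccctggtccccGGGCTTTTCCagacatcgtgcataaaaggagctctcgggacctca
Cxcl10: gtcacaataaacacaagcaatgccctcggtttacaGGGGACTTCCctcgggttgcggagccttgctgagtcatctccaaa
Il6: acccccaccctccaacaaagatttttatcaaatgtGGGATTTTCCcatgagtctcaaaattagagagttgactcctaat
These lie at chr10:19012009-19012088 (minus strand), chr12:55492648-55492711 (minus), chr5:90903786-90903865 (plus), chr5:92348949-92349028 (minus) and chr5:30013035-30013113 (plus). RefSeq has another start of Tnfaip3 farther upstream, from which this window lies inside the gene. The match starts 90 bases before the start of Tnfaip3, 29 before that of Nfkbia, 78 before that of Cxcl2, 104 before that of Cxcl10 and 44 before that of Il6. In Nfkbia it reads on the opposite strand. Cxcl2 held 3 matches and Cxcl10 held 2, and the other start of Tnfaip3 had a match 12 bases before it. Cxcl2, a neutrophil chemokine, was 2.70 higher in HFC (SE 1.52) with 10.99 at Week 12 (1.04 without it) and was well above background on 4 of 6 LFC arrays. Cxcl10, a chemokine for T cells, was 1.11 higher (SE 0.88) with 6.03 at Week 12 (0.12 without it).

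Alternatively activated and resident macrophage genes were not lower in HFC. Of 15, 14 had a mean above 0, with a median of 0.74 and weekly medians of 1.14, 0.27, 1.06, 1.40, -1.56 and 2.04. Folr2, a folate receptor of resident macrophages, was 1.39 higher (SE 0.69) and Mgl2, a galactose-type lectin, 1.24 (SE 0.64), and without Week 18, the pair with the dimmest array, they had 0.76 and 0.66. At Week 15, 1 of the 15 was higher in HFC, and both of these genes were lower there, by 1.67 and 1.56. The sign of this list was that of the general macrophage genes at each of the 6 weeks.

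Lipid-associated macrophage genes, of which 13 of 16 had a mean above 0 (median 0.57), had a median of 0.24 without Week 12. At Week 15 the median was 0.00 with 8 of 16 higher in HFC, and at Week 9 it was 0.21 with 9 of 16 higher. Mmp12, macrophage elastase, was higher in all 6 weeks, with differences of 0.92, 2.19, 0.32, 3.84, 1.26 and 1.80. It ran from -7.80 to -3.07 in LFC (median -5.88) and from -6.88 to -1.47 in HFC (median -4.35), and was well above background on 3 LFC and 4 HFC arrays. Its mean difference was 1.72 (SE 0.44), with an adjusted p of 0.864 in limma. Its mean difference over D6 to W0 was -0.59. The bone and lysosome protease Ctsk was 0.85 higher (SE 0.39; 0.44 without Week 12), with -0.10 at Week 9 and 0.25 at Week 15. Lysosomal lipase, Lipa, was 0.60 higher (SE 0.29). Under another background correction, normexp with the 75th percentile shift, Mmp12 had 0.15, Ctsk 0.67 and Lipa 0.57.

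The best-known genes of this state varied more. Trem2, a lipid receptor of such macrophages, ran from 1.26 to 2.66 in LFC (median 1.95) and from 0.31 to 4.15 in HFC (median 2.81). It was lower in HFC by 1.53 at Week 6 and higher at the other 5 weeks, by 2.84 at Week 12, and its mean difference of 0.60 (SE 0.50) was 0.15 without Week 12 and -0.08 without Weeks 9 and 12. Gpnmb, a glycoprotein of lipid-laden macrophages, was 1.16 higher (SE 0.61) and was also lower at Week 6, by 1.82, with a mean of 0.68 without Week 12 and 1.75 without Week 6. Spp1, osteopontin, differed by 4.12, 5.31 and 3.48 at Weeks 9, 12 and 15 but by -0.77 at Week 3 and -2.46 at Week 18 (mean 1.85, SE 1.0; 1.16 without Week 12).

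All 10 chemokine receptors had a mean above 0 (median 0.76), although under 1 of the scalings, normexp with the 75th percentile shift, 8 of 10 did. Ccr2, the monocyte receptor for CCL2, was 0.47 higher (SE 0.31; 0.75 without Week 15), and another probe of it had -0.21. Cx3cr1, the fractalkine receptor, was 0.85 higher (SE 0.40), with -1.04 at Week 6 and 1.06 at Week 15. Ccr3, a receptor of eosinophils, had the largest difference, 1.77 (SE 0.62). It rests on 5 weeks because all spots of Ccr3 on HFC W12 were marked as outliers. The other probe of Ccr3 had -0.21. Under normexp with the 75th percentile shift, Ccr3 had 0.05, Ccr2 0.21 and Cx3cr1 0.44.

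Of 13 complement genes, 4 had an unadjusted p below 0.05, against 2.24% of all probes higher at that p, and 0 passed after adjustment. Of the 13, 12 had a mean above 0 (median 0.67, weekly medians from -0.58 to 1.18). C3ar1, the receptor for the C3a fragment, was 1.25 higher (SE 0.48). C4b, the fourth component, was 0.69 higher (SE 0.27) and the C1 inhibitor Serping1 0.67 (SE 0.27). Each of these was lower in HFC at Week 15, by 1.04, 0.31 and 0.15, and higher at the other 5 weeks. Under normexp with the 75th percentile shift, C3ar1 had 0.32, C4b 0.73 and Serping1 0.85. The neutrophil oxidase subunit Ncf1, also used by macrophages, was 1.12 higher (SE 0.42) and was likewise below LFC at Week 15 alone, by 0.62. Without Week 12 it was 0.73.

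Interferon response genes had a mean above 0 in 14 of 15 (median 0.52). Mx1, an antiviral GTPase, was 1.31 higher (SE 0.54) with -0.54 at Week 3 and 3.71 at Week 12 (0.83 without it). Irf7, a transcription factor of the interferon response, was 0.87 higher (SE 0.47) and had its highest weekly difference, 2.55, at Week 3 (0.54 without it). Isg15, a ubiquitin-like protein, had 2.18 at Week 3, 3.01 at Week 12 and -1.77 at Week 15. Under normexp with the 75th percentile shift, Mx1 had 0.43, Irf7 0.29 and Isg15 1.01, and the median of the interferon list was 0.43. LFC W15 had the highest mean level of the list among LFC arrays, 0.91, and the list was lower in HFC at that week in 14 of 15 genes. Class II antigen presentation genes were above 0 in 7 of 9 (median 0.84), among them H2-DMa, which loads peptides, at 0.84 (SE 0.36) and the class II chain H2-Aa at 0.85 (SE 0.40). Of the Toll-like receptors and their signal proteins 10 of 15 were above 0, with a median of 0.24 that was -0.04 under normexp with the 75th percentile shift. Tlr1, a partner of Tlr2 in sensing lipopeptides, was 0.90 higher (SE 0.29) and lower only at Week 15, by 0.32.

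Lymphocyte genes were higher at most of the same weeks. All 19 T and NK cell genes had a mean above 0, with a median of 0.96 and weekly medians of 1.92, 0.83, -0.08, 2.67, -1.35 and 1.54. Without Week 12 the median was 0.54. Ncr1, the NK cell receptor NKp46, was higher in HFC in all 6 weeks (3.15, 0.37, 0.84, 2.27, 0.07 and 0.92; mean 1.27, SE 0.43), but was well above background on 3 of 6 LFC arrays. Nkg7, a granule protein of cytotoxic cells, was 1.13 higher (SE 0.52). Of 10 B cell genes, 9 had a mean above 0 (median 0.97, without Week 12 0.51). Cd22, an inhibitory receptor of B cells, was 1.91 higher (SE 0.66). Under normexp with the 75th percentile shift, Ncr1 had 0.14, Cd22 0.67 and Nkg7 0.996. The list medians under that scaling were 0.39 for T and NK cell genes and 0.26 for B cell genes. Between weeks both lists ranged widely: the T and NK genes averaged -0.25 on LFC W6 and 0.34 on HFC W6, above every other array of their diet.

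Of 9 mast cell genes, 7 had a mean above 0, so they did not all share 1 direction. Kit, the stem cell factor receptor, was lower in HFC in all 6 weeks, by 0.42, 0.46, 0.37, 0.59, 0.10 and 0.95 (mean -0.48, SE 0.20). Cma1, a mast cell chymase, was 0.94 higher (SE 0.40), with -0.74 at Week 6. The list median was 0.65, and 0.02 under normexp with the 75th percentile shift.

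Cell cycle genes were above 0 in 13 of 14, with a median of 0.60, and 3 of the 14 had an unadjusted p below 0.05, against 2.24% of all probes, with 0 past adjustment. The kinase Cdk1, which drives entry into mitosis, ran from -6.06 to -2.20 in LFC (median -3.52) and from -4.30 to -1.79 in HFC (median -2.55). Its difference was 0.93 (SE 0.38), with -0.76 at Week 15. Ccnb2, a partner cyclin, was 0.86 higher (SE 0.35; 0.54 without Week 12) and Tk1, thymidine kinase of S phase, 0.89 (SE 0.33). Without Week 12 the list median was 0.38. Over D6 to W0 it was 0.02. Under normexp with the 75th percentile shift, over Weeks 3 to 18, Cdk1 had 0.02, Ccnb2 0.69 and Tk1 0.39. The list median under that scaling was 0.295.

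**Figure D4:**
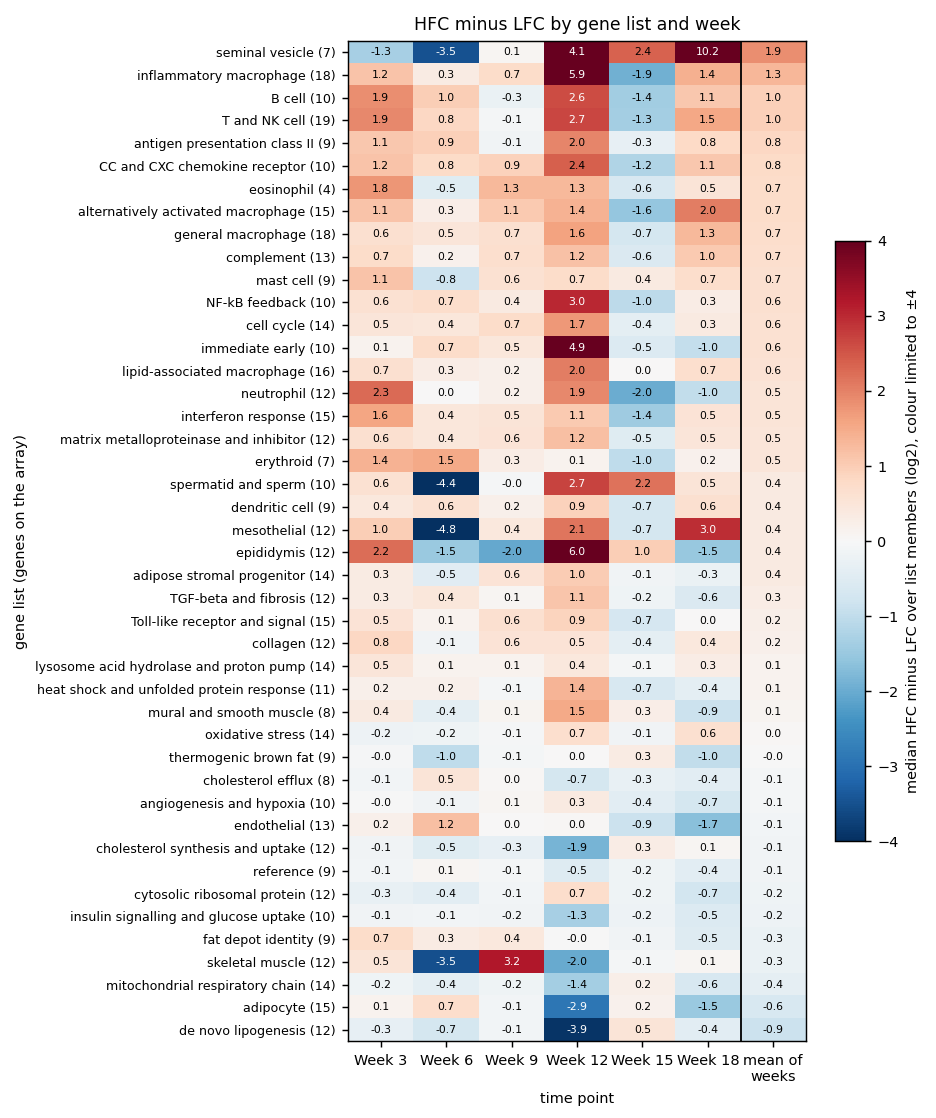
Median HFC minus LFC difference (log2) over the genes of each of 44 lists, by week and for the mean of the 6 weeks (last column). Lists are ordered by the last column, the number of genes on the array is in brackets, and colours are limited to 4 in either direction. Immune lists are mostly above 0 except at Week 15, and lipogenesis, the lowest by the mean of 6 weeks, has -3.91 at Week 12.

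All 12 genes of de novo lipogenesis had a mean below 0 (median -0.85, range -1.51 to -0.22). Of the 12, 2 were lower in HFC in all 6 weeks, against 0.793% of all probes. The weekly medians were -0.33, -0.69, -0.12, -3.91, 0.52 and -0.43, and without Week 12 the median was -0.41, when epididymis genes, at -0.52, lay lower. Up to 8 of the 12 were saturated on a single array, and a saturated level is a lower bound. Thrsp, a lipogenic protein that follows carbohydrate intake, was lower in all 6 weeks, by 0.80, 0.39, 0.08, 3.91, 1.31 and 0.53 (mean -1.17, SE 0.49; -0.62 without Week 12). Acaca, which makes malonyl-CoA, was likewise lower in all 6 weeks (mean -1.51, SE 0.86; -0.47 without Week 12), with a Week 12 difference of -6.73 and other weeks between -0.73 and -0.18; another of its 4 probes had a mean of 0.04.

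Fatty acid synthase, Fasn, ran from 4.43 to 5.80 in LFC (median 5.37) and from 3.78 to 5.35 in HFC (median 4.53). The diets overlapped, and HFC was lower at 5 weeks and higher at Week 15, by 0.45. The mean difference was -0.72 (SE 0.33). For the desaturase Scd1 it was -0.98 (SE 0.44) with 0.36 at Week 6, and for the elongase Elovl6 -1.46 (SE 0.74) with 1.15 at Week 15. The glucose transporter of fat and muscle, Slc2a4, had -1.10 (SE 0.55), and the insulin receptor Insr -0.70 (SE 0.34), for which another probe had 0.77. Without Week 12, Scd1 had -0.57, Elovl6 -0.65, Slc2a4 -0.54 and Insr -0.40.

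The adipocyte genes that are not lipogenic enzymes gave a less even picture. Of 15, 14 had a mean below 0 (median -0.65), but without Week 12 the median was -0.17, and at Week 6 14 of 15 were higher in HFC. Adiponectin, Adipoq, differed by 2.82 at Week 6, -2.73 at Week 12 and -1.59 at Week 18, with a mean of -0.16 (SE 0.65). Lep, which encodes leptin, had a mean of 0.34 (SE 0.90), with 2.64 at Week 6, -4.51 at Week 12 and 3.06 at Week 18. So leptin stood above LFC at Week 18 while adiponectin stood below it. The triglyceride lipase Pnpla2 had -0.70 (SE 0.43; -0.32 without Week 12). Up to 10 members were saturated on a single array.

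Mitochondrial genes were lower by small amounts. All 14 respiratory chain genes had a mean below 0 (median -0.36, range -0.82 to -0.13). Of the 14, 1 was lower in HFC in all 6 weeks, against 0.793% of all probes. The median of Week 12 was -1.36, and without that week it was -0.18. Up to 9 of the 14 were saturated on a single array. Cox6c, a subunit of cytochrome c oxidase, was lower in all 6 weeks, by 1.29, 0.81, 0.13, 0.79, 0.17 and 1.76. It ran from 4.70 to 6.16 in LFC (median 5.4) and from 3.83 to 5.27 in HFC (median 4.74), and its mean difference was -0.82 (SE 0.28). Cytochrome c, Cycs, had -0.63 (SE 0.29; -0.39 without Week 12). Genes taken as stable references also lay below 0 in 8 of 9, with a median of -0.15 (Hprt -0.42, SE 0.23; B2m -0.24, SE 0.20), so some bright transcripts outside the respiratory chain were shifted the same way. The hypoxia and mitophagy gene Bnip3 was 0.97 lower (SE 0.40), with a difference of -0.55 without Week 12.

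Matrix genes showed small differences. Collagen genes were above 0 in 11 of 12, with a median of 0.22, and metalloproteinases and their inhibitors in 11 of 12, with 0.49. Adam8, a leukocyte metalloproteinase, was higher in HFC in all 6 weeks (0.78, 0.43, 0.63, 3.20, 0.29 and 0.82; mean 1.02, SE 0.40, and 0.59 without Week 12). Mmp13, a collagenase, had 1.66 (SE 0.82), with 6.42 at Week 12 and 0.71 without that week. Fibronectin, Fn1, was 1.05 higher (SE 0.48). Hexa, a lysosomal hexosaminidase, was 0.41 higher (SE 0.22) and above LFC in all 6 weeks, by as little as 0.01 (0.27 without Week 12). Gpm6a, a membrane glycoprotein taken here as a mesothelial marker, was 0.71 higher (SE 0.31) in all 6 weeks, from 0.00 to 2.18 (mean 0.42 without Week 12), whereas its list had a median of -4.82 at Week 6. Among immediate early genes, Atf3 had 1.59 (SE 0.86) with 6.80 at Week 12 and 0.55 without it, and the list median of 0.60 was -0.03 without Week 12.

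The genes of smallest p with the same sign in all 6 weeks were 10 higher and 10 lower in HFC. They were picked for that pattern, their adjusted p was 0.864, and the diets overlapped for each. Clec3b, tetranectin, a plasminogen-binding protein of the matrix, was well above background on all 12 arrays. It ran from 0.53 to 1.77 in LFC (median 1.5) and from 1.67 to 3.21 in HFC (median 2.72), with a mean difference of 1.21 (SE 0.26, a fold of 2.31). Col1a1, a chain of type I collagen, had 1.20 (SE 0.30) on the probe named here and 1.17 on another, but 0.04 on the probe that stands for it in the collagen list. On the named probe the Week 6 difference was only 0.0029. Cd276, an immune checkpoint ligand, had 1.15 (SE 0.28) and was well above background on 2 of 6 LFC and 6 of 6 HFC arrays. The others were Wdr64, Frmd5, Ephx4, Nxph1, Tbc1d2b and Ids, which were marked on 2 or 3 LFC arrays. These differences depended on the background correction. Under normexp with the 75th percentile shift, Wdr64 had 0.03, Frmd5 0.22, Nxph1 0.10 and Tbc1d2b 0.03, and Cd276, Ephx4 and Ids lay just below 0, while Clec3b had 1.23 and Col1a1 1.06. For Ids, a lysosomal sulfatase, a probe that was above background on all 12 arrays had -0.25, and such a probe of Tbc1d2b had 0.20.

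Among the lower ones Klf14, a transcription factor of fat tissue, had the largest difference. It ran from -5.69 to -1.25 in LFC (median -4.51) and from -7.24 to -4.16 in HFC (median -6.17), with differences of -2.31, -2.24, -2.92, -1.88, -0.32 and -0.85 and a mean of -1.75 (SE 0.37). Klf14 was well above background on 5 LFC and 4 HFC arrays, and had -0.78 under normexp with the 75th percentile shift. Plpp6, a lipid phosphatase, was well above background on all 12 arrays and was 1.16 lower (SE 0.29). Cldn12, a tight junction protein, was 0.92 lower (SE 0.25) and Mtln, a mitochondrial micropeptide that helps fatty acid oxidation, 0.82 (SE 0.27). The others were Tas2r113, Cdnf, Dach1, Lztfl1, Spata17 and Heph, with means between -1.26 and -0.79. Tas2r113 was well above background on 4 LFC and 4 HFC arrays, and Spata17 and Heph on 3 and 3. Under normexp with the 75th percentile shift, Tas2r113 had -0.60, Spata17 -0.49 and Heph -0.30, while Plpp6 had -0.94 and Mtln -0.64. For Spata17 a probe that was above background on all 12 arrays had 0.43. Such a probe had -0.18 for Dach1, -0.255 for Lztfl1, -0.59 for Plpp6 and -0.89 for Heph.

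**Figure D5:**
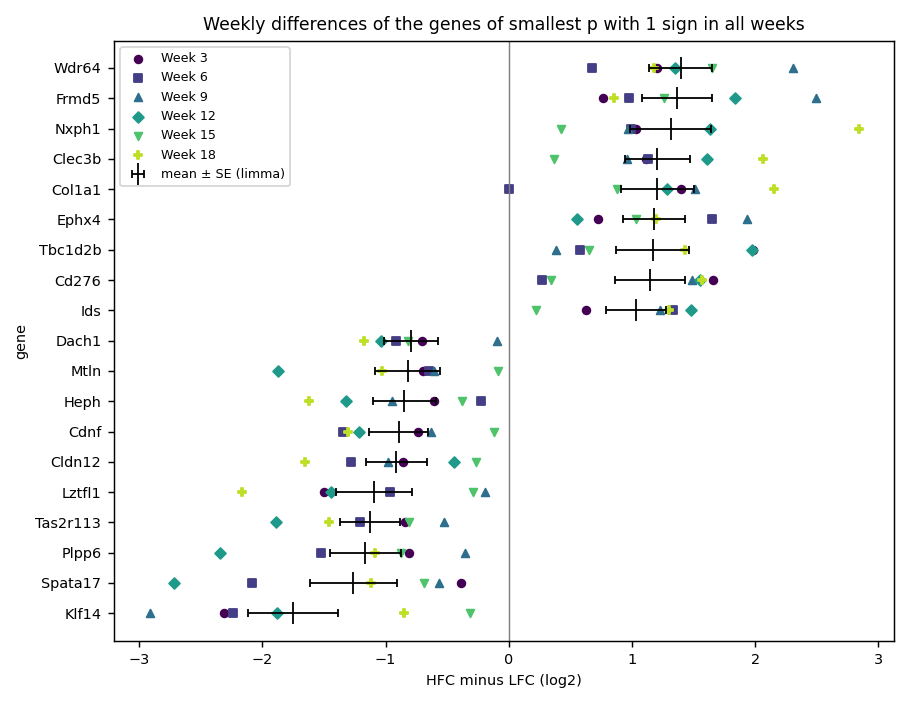
HFC minus LFC (log2) of 19 genes at each week (1 symbol per week) with the mean and its SE from limma (black bar). Each gene was picked for having 1 sign in all 6 weeks, from Wdr64 (mean 1.39) to Klf14 (mean -1.75).

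Next, a trend of the diet difference with time was tested. Limma called a slope in 0 of 30665 probes (0%), the smallest adjusted p being 0.999. Without adjustment 1093 were below 0.05 (3.56%), 578 upward and 515 downward. Upward, the named genes of smallest p were led by Svs6, a seminal vesicle secretory protein, at 0.84 per week (SE 0.13). Its difference went from -4.06 at Week 6 to 10.16 at Week 18, which goes with the seminal vesicle level of HFC W18 given above. Fam3b, a secreted islet cytokine, had 0.29 per week (SE 0.05) and Fanca, a DNA repair protein, 0.30 (SE 0.06). Downward, Slc4a1, the anion exchanger of red blood cells, went from 4.42 at Week 3 to 0.17 at Week 18 (-0.31 per week, SE 0.06), Lgi1, a secreted neuronal protein, had -0.21 (SE 0.04) and Msmp, a secreted microseminoprotein, -0.24 (SE 0.05).

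The difference of weeks 3 to 18 was then set against that of the same diets at D6, D10, D14 and W0 (8 arrays). The paper treats D14 and W0 as the same time, while the fit took them as separate time points. Of 31203 probes, 0 passed (0%), the smallest adjusted p being 0.441. Without adjustment 2358 were below 0.05 (7.56%), with 1231 greater and 1127 smaller at weeks 3 to 18. Angptl8, an insulin-induced inhibitor of lipoprotein lipase, was higher in HFC at all 5 weeks in which it was measured (mean 0.66) and lower by 2.14 on average before, a change of 2.80 (SE 0.40), but it was well above background on 2 LFC and 3 HFC arrays of these weeks. Zfp369, a zinc finger protein, had 0.62 against -3.58 before (4.20, SE 0.74). Gcm1, a placental transcription factor, had 0.01 against -3.51 (3.51, SE 0.72) and was above background on 2 LFC and 4 HFC arrays. None of these passed the threshold. In the other direction were Spdya (-2.74, SE 0.49), Zpbp2 (-2.90, SE 0.52) and Fabp9 (-6.12, SE 1.07), genes known from the germ line. Sperm genes had an earlier median of 2.23 and a later one of 0.37.

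List by list, the earlier median was lower than the later for chemokine receptors (-0.85 against 0.76), T and NK cell genes (-0.06 against 0.96), B cell genes (-0.55 against 0.97), interferon genes (-0.25 against 0.52) and lipid-associated macrophage genes (-0.13 against 0.57). It was closer for general macrophage genes (0.34 against 0.70), and for complement genes the earlier median was the greater (0.97 against 0.67). Lipogenic genes were below 0 in both periods (-1.16 and -0.85), as were adipocyte genes (-1.15 and -0.65) and the respiratory chain (-0.48 and -0.36). Mesothelial genes (3.92 against 0.36) and epididymis genes (5.34 against 0.35) differed by more than any immune list. These list values are descriptions, and their difference between the periods was not tested.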

How the data were processed

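Each array was hybridised with labelled RNA and scanned. Per the file headers, the deposited scanner files hold intensity values from Feature Extraction 10.5.1.1 (the submitters' processing notes name Agilent Feature Extraction 9.1), in which the processed signal is background-subtracted and not normalised between arrays. The deposited series table holds log2 ratios, each array against its LFC counterpart, made by the authors in GeneSpring GX, and was used as an alternative only.

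For 43803 non-control spots an array, log2 of the processed signal was taken. The 75th percentile of all these spots, outlier spots included, was subtracted. Outlier spots were then left out and the other spots of a probe were averaged. On HFC W12 all spots of 4245 probes were outliers, so the differences of these probes rest on 5 weeks. Symbols came from a RefSeq gene table (gene ID for 30735 probes, accession for 2553, symbol for 846), and 6494 kept the name in the file. The filter kept probes well above background in a 0.5 share or more of either diet's arrays. Models were fitted with limma 3.58.1 in R 4.3.3 (lmFit, eBayes, two-sided, Benjamini-Hochberg, threshold 0.05), with week as a block, since the study set each array against the LFC array of its time point. Deviations of the arrays of a week from the diet means correlated between 0.26 and 0.67 across probes, except at Week 12 (-0.26). Fits were tested on simulated data. For arrays, their number limits the precision.

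A list is represented by the brightest probe of each gene, and its counts cover members with or without passing the filter. Named genes were the 10 of smallest p in each direction with 1 sign in all 6 weeks, the leading members of each list, any member of the macrophage, chemokine, adipocyte and lipid lists, and the 3 leading genes in each direction of the other fits. Some genes that the rule names are not reported here. The 44 lists and their members were chosen with earlier results of these data known. Alternatives were other normalisations, filters, fits and sets of weeks.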

Additional observations from a re-analysis of the deposited data

Results flagged for a closer look

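Among 92 sets of 6 arrays of a diet (list levels and array brightness), 13 had an array whose gap to its nearest neighbour exceeded the critical value of Dixon's test, where chance gives about 1 in 20. HFC W9 accounted for 7 of them: it had the highest mean level of adipocyte genes (4.64, next 2.06), lipogenic genes (3.97, next 1.39), insulin signalling genes (1.30, next 0.57), cholesterol synthesis genes (1.03, next 0.11) and respiratory chain genes (4.67, next 3.86), and the lowest of immediate early genes (0.54, next 4.58) and heat shock genes (1.93, next 2.87). In LFC, W9 and W12 shared this profile, with adipocyte levels of 4.74 and 4.70 and immediate early levels of 0.13 and 0.04. A test of the gap to the nearest array of the same diet cannot flag such a pair. HFC W6 was lowest in mesothelial genes (-4.57, next 0.34), and HFC W18 highest in seminal vesicle genes (5.84, next -4.86).

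In LFC, W15 was highest in interferon genes (0.91, next -0.27), W6 in T and NK cell genes (-0.25, next -2.68) and W18 in erythroid genes (-0.54, next -2.10). LFC W18 was also the dimmest, with a log2 75th percentile of 7.84 scanner units against 9.71 for the next array.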

How the results depend on the processing

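No probe passed an adjusted p of 0.05 for the mean difference under any alternative run, nor for the slope. In the contrast with D6 to W0 the count ran from 0 to 1 when 1 time point was left out: without W6 limma called Lypd4 (-4.25, SE 0.41, adjusted p 0.0496; -5.51 and 0.487 with all weeks), with the smallest adjusted p from 0.0496 to 0.92 over those fits.

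Unadjusted counts moved more. With no replicate block (arrays not paired by week) 314 probes were higher and 75 lower, against 687 and 234, and 935 in the contrast of periods, against 2358. Quantile normalisation gave 363 higher and 370 lower, normexp with the 75th percentile shift 88 and 117 (203 for the slope, against 1093), and normexp with quantile normalisation 456 lower. Restricted to probes above background on every array, 400 were higher and the contrast of periods had 1324. The paired t-test on the weekly differences gave 440 and 398. With brightness as a covariate they were 1512 and 696, with 1790 for the slope and 1404 for the contrast. Without weeks 9 and 12 there were 300 and 375, and within the weeks whose arrays share a slide 1197 higher. Chosen after seeing the data, the fit without weeks 12 and 15 gave 1727 and 1008, and without weeks 9, 12 and 15 1375 and 771. Leaving out 1 week, the higher count ran from 366 (without W12) to 2061 (without W15), the lower from 99 (without W18) to 669 (without W15), with 374 higher without W18 and 120 lower without W3, the slope from 625 (without W9) to 1800 (without W12), with 634 without W6, and the contrast from 1324 (without D6) to 3139, with 1354 without D10. The cause was not tested.

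Of 87 genes, the difference turned sign for Ephx4 (-0.0045), Ids (-0.0085), Cd276 (-0.0039) and Lep (-0.76) under normexp with the 75th percentile shift. Leaving out 1 week, Lep ran up to 1.32 (without W12) and Adipoq down to -0.75 (without W6). Lep was -0.13 under normexp with quantile normalisation, -0.72 with brightness, -0.35 within slides, -0.11 without W6 and -0.20 without W18. Without weeks 9 and 12, Il1b was -0.047, Il6 -0.29, Trem2 -0.076 and Adipoq 0.46; without weeks 9, 12 and 15, Il6 was -0.054, Trem2 -0.21, Spp1 -0.61 and Adipoq 0.46. Adipoq was 0.36 without W12, 0.13 without W18 and 0.33 without weeks 12 and 15. The median of all probes moved from 0.02 to -0.06 under quantile normalisation , 0.11 with brightness and -0.13 without weeks 9, 12 and 15. Ribosomal protein genes changed sign under all 3 other scalings (-0.16 to 0.08, 0.01 and 0.08), dendritic cell, eosinophil and Toll-like receptor genes under normexp with the 75th percentile shift (-0.07, -0.06 and -0.04), sperm genes under both quantile settings (-0.01 and -0.11), and oxidative stress and hypoxia genes under normexp with quantile normalisation (-0.06 and 0.01). Saturated adipocyte and lipogenic probes, LFC W18 at 229.8 scanner units and the single array per diet and week limit what can be read.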
